A study of Homo sapiens with 18 samples.

Results

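The TSC22 domain family comprises TSC22D1, TSC22D2, TSC22D3 and TSC22D4, and TSC22D3 encodes GILZ, the glucocorticoid-induced leucine zipper. GR binding regions (GBR) were assigned to these 4 genes when the peak summit lay within 100 kb of the canonical transcription start site (TSS) in GENCODE release 44 (GRCh38). After peaks of the 6 siRNA lists were merged by an overlap of at least 1 bp, 10 of 9736 regions met this rule. TSC22D3 had 5 of them, TSC22D4 had 4, TSC22D2 had 1 and TSC22D1 had 0.

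GR occupancy was assessed by ChIP-seq in U2OS-GRα cells, an osteosarcoma line stably transfected with the glucocorticoid receptor α (GRα), so that the receptor came from a transgene. All groups received siRNA for 48 h and then 100 nM of the glucocorticoid dexamethasone (dex) for 1 h. Cells containing Hic-5 received control siRNA alone (siNS/siNS) or siRNA against CHD9 (siCHD9/siNS) or BRM (siBRM/siNS). Cells depleted of Hic-5 received control siRNA beside it (siHic5/siNS), or a second siRNA against CHD9 (siCHD9/siHic5) or BRM (siBRM/siHic5). Each group had 2 GR ChIP libraries, 12 in all, and 1 input library, 6 in all. Hic-5 is a coregulator that can restrain GR binding, and CHD9 and BRM are ATP-dependent chromatin remodelers. Groups without dex were not analysed here, so the lists hold GR binding in the presence of hormone, and how far each siRNA lowered its target cannot be read from them.

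TSC22 family proteins share a conserved TSC box followed by a leucine zipper, through which they form homodimers and heterodimers. The short products, of which GILZ is the best known, lack the long N-terminal regions of the long products. GILZ is a classical glucocorticoid-induced gene product that binds NF-κB, AP-1 and Raf-1 and mediates part of the anti-inflammatory action of glucocorticoids. TSC22D1 was first described as a gene stimulated by TGF-β. The long products act with the pseudokinase NRBP1 and the WNK kinases in the response of cells to osmotic stress, and TSC22D4 is also known for its part in hepatic lipid and glucose metabolism.

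The deposited data were 1 peak list per siRNA combination, called on pooled replicates. There was thus no spread between replicates, no test could be made, and each statement below is about the lists and not about replicated conditions. The lists carry no read totals and those of the study were not used, so the depth behind a call was not analysed here. For each GBR the authors' caller gave a −log10 p-value, a −log10 q-value and a signal value, which were used to rank GBR within a list (rank 1 is the strongest) and not to compare heights between lists. The siHic5/siNS list was the longest with 9533 GBR, followed by siBRM/siHic5 with 3383, siNS/siNS with 2582, siCHD9/siHic5 with 2451, siCHD9/siNS with 1415 and siBRM/siNS with 1278. Their weakest GBR had a −log10 q-value of 7.26 to 8.91, except in siBRM/siHic5, where it was 14.2.

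Sequences under the summits of some GBR of the family are given first, with any glucocorticoid response element (GRE) in them marked. Each is the plus strand of GRCh38, 5′ to 3′, centred on the siHic5/siNS summit. The TSC22D3 windows are 100 bp and those of TSC22D4 and TSC22D2 are 200 bp. Capitals mark a GRE, searched on both strands as GNACA and TGTNC with any 3 bases between them and at most 1 mismatch at the 8 defined letters, or an AP-1 element, searched as TGACTCA or TGAGTCA. The first is the strongest GBR inside the TSC22D3 window, the second is the GBR just outside that window that was called in every list, the third is the TSC22D3 GBR with a GRE free of mismatches, and the fourth is the intronic TSC22D3 GBR, which has no match. The last are the strongest GBR of TSC22D4 and the sole GBR of TSC22D2.
TSC22D3, 98.5 kb downstream, chrX:107677202-107677301: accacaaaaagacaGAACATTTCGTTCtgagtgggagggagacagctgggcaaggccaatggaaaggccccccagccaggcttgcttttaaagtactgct
TSC22D3, 101.6 kb downstream, chrX:107674169-107674268: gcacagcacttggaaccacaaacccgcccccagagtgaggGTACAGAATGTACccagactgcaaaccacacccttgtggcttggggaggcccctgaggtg
TSC22D3, 75.4 kb downstream, chrX:107700311-107700410: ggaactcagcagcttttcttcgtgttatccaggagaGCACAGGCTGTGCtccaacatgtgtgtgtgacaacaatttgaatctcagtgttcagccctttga
TSC22D3, 33.8 kb downstream, chrX:107741921-107742020: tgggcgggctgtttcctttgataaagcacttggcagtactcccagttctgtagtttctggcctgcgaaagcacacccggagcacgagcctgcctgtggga
TSC22D4, 66.8 kb upstream, chr7:100545912-100546111: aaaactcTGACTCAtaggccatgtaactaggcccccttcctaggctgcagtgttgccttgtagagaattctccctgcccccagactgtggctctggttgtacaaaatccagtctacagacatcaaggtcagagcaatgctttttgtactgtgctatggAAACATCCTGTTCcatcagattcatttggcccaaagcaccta
TSC22D2, 36.3 kb upstream, chr3:150371857-150372056: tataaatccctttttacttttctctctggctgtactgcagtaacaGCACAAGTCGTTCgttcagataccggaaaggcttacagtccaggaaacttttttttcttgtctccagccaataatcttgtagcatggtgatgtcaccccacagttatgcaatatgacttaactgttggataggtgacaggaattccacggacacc

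All 10 regions were called in siHic5/siNS, the longest list with 9533 GBR. Of the 10, siBRM/siHic5 held 3, siNS/siNS and siCHD9/siHic5 held 2 each, siBRM/siNS held 1 and siCHD9/siNS held 0. As shares of the lists, these were 0.105% of siHic5/siNS, 0.089% of siBRM/siHic5, 0.082% of siCHD9/siHic5, 0.078% of siBRM/siNS and 0.077% of siNS/siNS, with none of the 1415 GBR of siCHD9/siNS. Of the 4 genes, 3 had at least 1 GBR in siHic5/siNS and 2, TSC22D3 and TSC22D4, had one in siNS/siNS. Among 19975 protein-coding genes, 43.7% had a GBR within 100 kb in siHic5/siNS and 17.1% in siNS/siNS. TSC22D3 and TSC22D4 were also the genes with a GBR in siCHD9/siHic5 (background 16.4%) and in siBRM/siHic5 (background 22.2%). TSC22D3 alone had a GBR in siBRM/siNS (background 9.95%), and no family gene had one within 100 kb in siCHD9/siNS (background 10.5%).

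**Figure D1:**
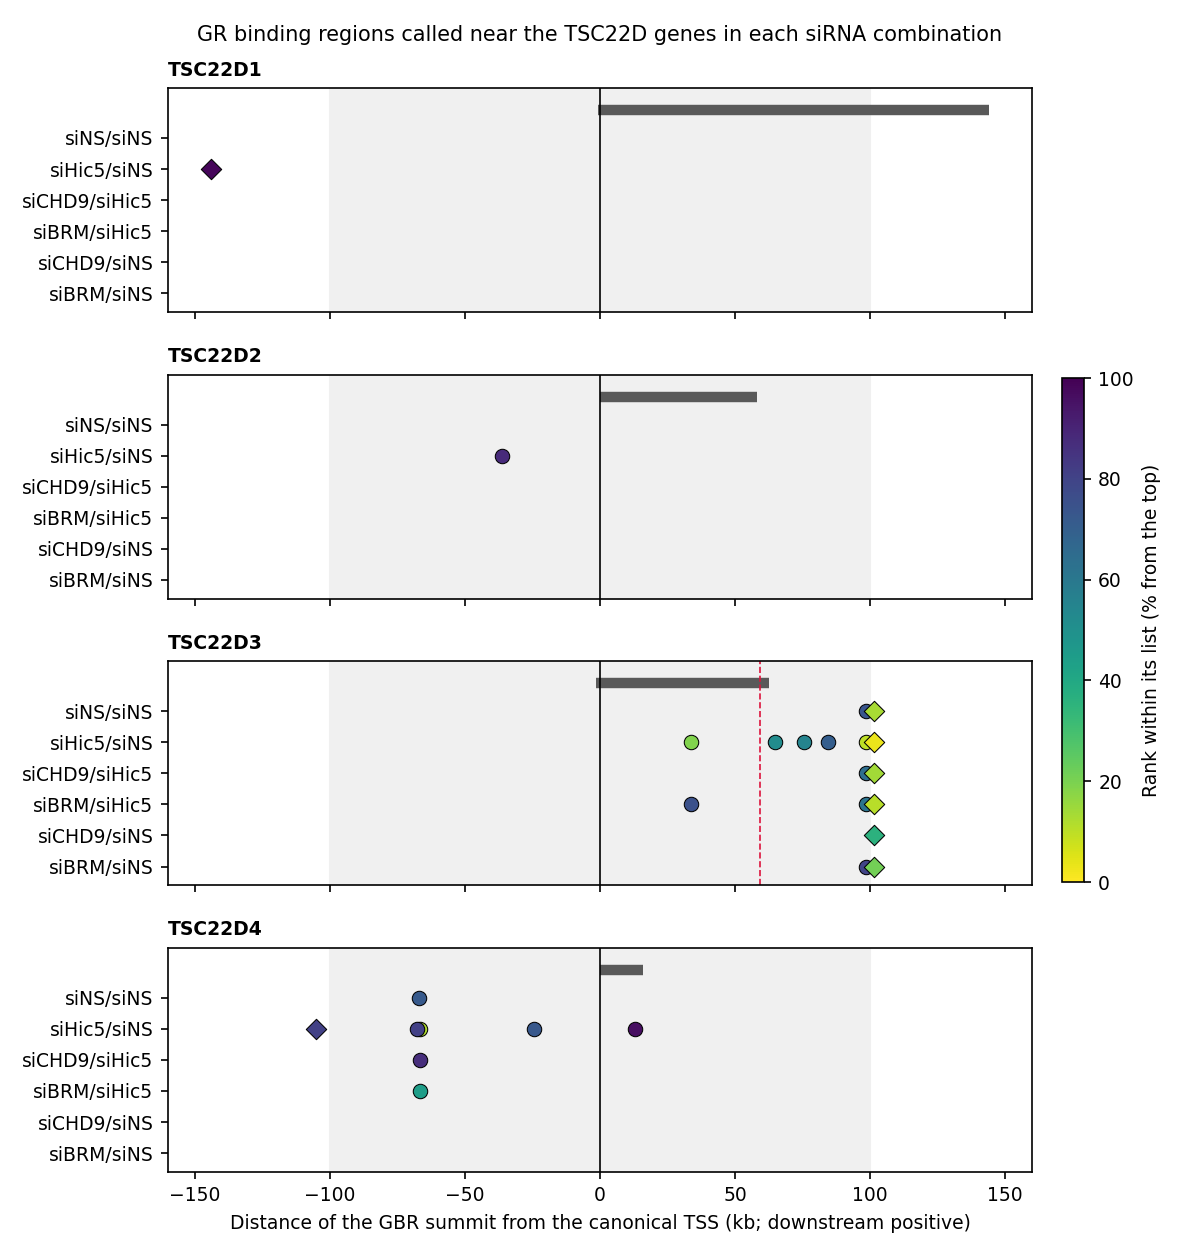
GBR near each TSC22D gene, plotted by the distance of the summit from the canonical TSS in kb (downstream positive), with 1 line per siRNA combination. Circles are GBR inside the 100-kb window (grey), diamonds are the nearest GBR outside it, the colour gives the rank within the list in percent from the top, the dark bar is the gene, and the dashed line is the start of the short TSC22D3 transcripts. The 5 TSC22D3 regions all lie downstream of the canonical TSS, and the diamond at 101.6 kb is present in every list.

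TSC22D3 (ENSG00000157514.18) occupies chromosome X from 107713221 to 107777342 on the minus strand, and its canonical TSS at 107775787 belongs to a long transcript. The short transcripts, which encode the GILZ form, start 59.4 kb further downstream, where 4 annotated transcripts begin between 107716401 and 107717135. Distances of TSC22D3 GBR are therefore given from both starts. Only 2 other protein-coding TSS share the 100-kb window. PRPS1, which encodes an enzyme of nucleotide synthesis and starts outside that window, has the canonical TSS nearest to the 3 most distal GBR. The short TSC22D3 transcripts start nearer to all 3, at 16, 25.2 and 39.1 kb, against 71.9, 62.7 and 48.7 kb for PRPS1.

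The strongest TSC22D3 GBR inside the window was 98.5 kb downstream of the canonical TSS and 39.1 kb downstream of the short transcripts, in intergenic sequence 36 kb past the end of the gene and 48.7 kb from the TSS of PRPS1. In siHic5/siNS it spanned 107676732 to 107677553 and ranked 949 of 9533, with a −log10 p-value of 70.1 and a signal value of 18.1. In siNS/siNS it spanned 107677055 to 107677426 and ranked 1900 of 2582, with a −log10 p-value of 16.0. This GBR, whose GRE has 1 mismatch and begins at 107677216, was thus in the upper 9.95% of the Hic-5 depleted list and at 73.6% from the top of the control list. In siCHD9/siHic5 it ranked 1571 of 2451 with a −log10 p-value of 16.8, and in siBRM/siHic5 it ranked 2088 of 3383 with a −log10 p-value of 27.4. In siBRM/siNS it ranked 1018 of 1278 with a −log10 p-value of 13.5. It was therefore called in 5 lists, in the lower part of each but siHic5/siNS, and was absent from siCHD9/siNS alone. In siHic5/siNS it was 822 bp wide, against 286 to 427 bp in the other 4 lists.

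An intronic GBR of TSC22D3, 33.8 kb downstream of the canonical TSS and 25.6 kb upstream of the most downstream short transcript start, was called after Hic-5 depletion with BRM depleted or not, and in no list of cells containing Hic-5. It ranked 1819 of 9533 in siHic5/siNS, from 107741677 to 107742459, with a −log10 p-value of 46.2. In siBRM/siHic5 it ranked 2541 of 3383, from 107741735 to 107742152, with a −log10 p-value of 23.4. It was not called in siCHD9/siHic5. Among the TSC22D GBR absent from siNS/siNS it was the strongest, and no GRE, AP-1 or ETS match was found in the 200 bp at its summit.

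The other 3 TSC22D3 GBR were called in siHic5/siNS and in no other list, and all lay in intergenic sequence past the end of the gene. The one at 65.0 kb, 5.58 kb downstream of the short transcripts and the nearest to the GILZ start, ranked 4940 of 9533 with a −log10 p-value of 21.7 (107710634 to 107711323). The one at 75.4 kb, 16.0 kb downstream of the short transcripts, ranked 5233 with a −log10 p-value of 20.7 (107700189 to 107700689). Its GRE, GCACAGGCTGTGC, was the only one of the 10 regions without a mismatch and lay 8 bp from the summit. The one at 84.5 kb, 25.2 kb downstream of them, ranked 6730 with a −log10 p-value of 16.7 (107691049 to 107691423) and held 2 GRE with 1 mismatch each, GTACAGAGAGTTC and GCACATGCTGCTC, and 1 AP-1 element. All 3 were thus in the lower part of the siHic5/siNS list, with ranks from 51.8% to 70.6% from the top.

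A GBR just outside the window was the strongest near TSC22D3 and the only one within 200 kb of the family's TSS that was called in all 6 lists. The nearest canonical protein-coding TSS was that of PRPS1. The GBR lay 101.6 kb downstream of the canonical TSC22D3 TSS, 42.2 kb downstream of the short transcripts and 39 kb past the gene end. In siHic5/siNS it spanned 107673946 to 107674643, ranked 279 of 9533 and had a −log10 p-value of 128. In siNS/siNS it ranked 336 of 2582 with a −log10 p-value of 51.1, and in siCHD9/siHic5 it ranked 344 of 2451 with a −log10 p-value of 52.4. It therefore stood near the top of all 3 of these lists, at 2.93%, 13.0% and 14.0%, percentages that depend on the length of each list. In siBRM/siHic5 it ranked 369 of 3383, 10.9% from the top, with a −log10 p-value of 96.3. In siBRM/siNS it ranked 271 of 1278 (21.2%), and in siCHD9/siNS it ranked 510 of 1415 (36.0%), the lowest relative rank of the 6. Its GRE, GTACAGAATGTAC, had no mismatch. When the TSC22D3 window was set from the short transcripts, a setting chosen after seeing the data, this GBR was included, and the family then had 1 GBR in siCHD9/siNS and 2 in siBRM/siNS.

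**Figure D2:**
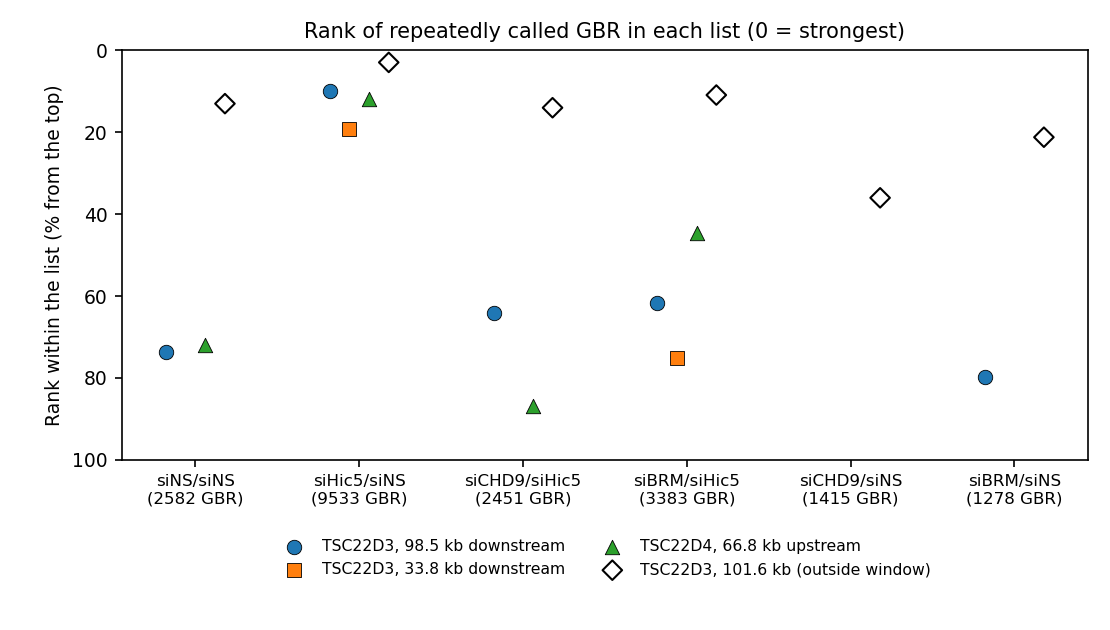
Rank within each list, in percent from the top (0 is the strongest), of the GBR near TSC22D genes that were called in more than 1 list and of the TSC22D3 GBR outside the window. Points are single pooled calls with no replicate error, and a missing point is a list without the call. The lists differ in length, so percentages in different lists are not on 1 scale. The GBR at 98.5 kb and the TSC22D4 GBR at 66.8 kb rank at 9.95% and 11.9% in siHic5/siNS and at 73.6% and 71.9% in siNS/siNS, while the GBR at 101.6 kb ranks between 2.93% and 36.0% in all 6 lists.

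TSC22D4 (ENSG00000166925.9) occupies chromosome 7 from 100463359 to 100479232 (minus strand) in a gene-dense segment, where 9 other protein-coding TSS share its 100-kb window. All 4 of its GBR had a nearer protein-coding TSS of another gene, so their assignment to TSC22D4 rests on distance alone. The strongest lay 66.8 kb upstream in an intron of AGFG2, which encodes a protein with an ArfGAP domain, 6.81 kb from the TSS of that gene. It ranked 1131 of 9533 in siHic5/siNS (100545580 to 100546375) with a −log10 p-value of 63.0. In siNS/siNS it ranked 1856 of 2582 with a −log10 p-value of 16.2. In siBRM/siHic5 it ranked 1505 of 3383 with a −log10 p-value of 35.9, and in siCHD9/siHic5 it ranked 2127 of 2451 with a −log10 p-value of 13.0. This GBR was absent from siCHD9/siNS and siBRM/siNS. Its ranks came to 44.5% from the top of siBRM/siHic5 and 86.8% of siCHD9/siHic5, lists that differ in length and limit. It carried both a GRE, AAACATCCTGTTC, and an AP-1 element, which lay on opposite sides of the summit.

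The other 3 TSC22D4 GBR were called in siHic5/siNS and in no other list. The one 67.9 kb upstream, also in the AGFG2 intron (100546953 to 100547308), ranked 7735 with a −log10 p-value of 14.7. The one 24.4 kb upstream was intergenic (100503348 to 100503746), with NYAP1 the nearest gene at 19.7 kb, and ranked 6954 with a −log10 p-value of 16.2. The one 13.1 kb downstream lay in an intron of a TSC22D4 transcript (100465960 to 100466280), 1.85 kb from the TSS of SPACDR, and ranked 9177 of 9533 with a −log10 p-value of 12.5. The GBR nearest to the TSC22D4 TSS was therefore among the weakest calls of the list. Each of the 3 held 1 GRE with 1 mismatch, GTTCACTCTGTAC, GAGCAACATGTAC and GGGCACCGTGTGC in the order given. Beyond the window, the nearest GBR was 105.3 kb upstream, in introns of LRCH4 and FBXO24 (100584268 to 100584712), and it too was called in siHic5/siNS alone, at rank 7699.

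TSC22D2 (ENSG00000196428.13), the least studied of the 4 genes, occupies chromosome 3 from 150408298 to 150466422 (plus strand), with no other protein-coding TSS within 100 kb. Its 1 GBR was 36.3 kb upstream in intergenic sequence (150371823 to 150372279), was called in siHic5/siNS alone, and ranked 8384 of 9533 with a −log10 p-value of 13.6 and a signal value of 5.04. Its GRE, GCACAAGTCGTTC, had 1 mismatch. TSC22D1 (ENSG00000102804.16), the TGF-β-stimulated member, occupies chromosome 13 from 44432143 to 44577147 (minus strand) and had no GBR within 100 kb of its canonical TSS in any list. The nearest was 144.2 kb upstream (44720118 to 44720687), was called in siHic5/siNS alone and ranked 9409 of 9533 with a −log10 q-value of 8.91. The nearest siNS/siNS GBR was 346 kb from the TSS. TSC22D1 and TSC22D2 thus had no call near them in cells containing Hic-5, and their nearest calls in Hic-5 depleted cells were at 98.7% and 87.9% from the top of that list.

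To ask which GBR of the family were called only once Hic-5 was depleted, the siHic5/siNS list was compared with siNS/siNS. The study defined its blocked GBR by differential binding as well, which was not analysed here. Of the 10 GBR, 8 were absent from siNS/siNS, namely the sole GBR of TSC22D2, 4 of 5 of TSC22D3 and 3 of 4 of TSC22D4. Over the whole siHic5/siNS list 74.0% were absent, so the family stood near the share of the list. In the reverse direction, 0 of the 2 siNS/siNS GBR were absent from siHic5/siNS, beside 3.18% of all siNS/siNS GBR. When 1 common −log10 q-value threshold of 14.2 was applied to all lists, both siNS/siNS calls were lost and 5 siHic5/siNS calls remained. With 0 siNS/siNS calls left near the family, the absence of these 5 was fixed by the threshold, and 76.1% of all siHic5/siNS GBR were absent from siNS/siNS at that setting.

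To ask which of the 10 were not called when CHD9 or BRM was also depleted, siHic5/siNS was compared with the double depletion lists. As deposited, the counts absent from both stood near the shares of the whole list. Absent from siCHD9/siHic5 were 8 of 10, beside 75.4% of the whole list, and the 2 kept were the TSC22D3 GBR at 98.5 kb and the TSC22D4 GBR at 66.8 kb. Absent from siBRM/siHic5 were 7 of 10, beside 65.4%, and here the intronic TSC22D3 GBR at 33.8 kb was kept as well. In the lists as deposited, that GBR was the only one of the 10 to differ between the double depletion lists. At the common threshold of 14.2, which is the limit of the siBRM/siHic5 list, siCHD9/siHic5 kept 0 and siBRM/siHic5 kept 3. Of the 5 siHic5/siNS calls left, 5 were then absent from siCHD9/siHic5 and 2 from siBRM/siHic5, beside 78.2% and 50.5% of the whole list. With 0 siCHD9/siHic5 calls left near the family, the absence of the 5 was fixed by the threshold. At that threshold the 2 lists share 1 limit, whereas the deposited limits (lowest −log10 q-value) were 7.74 in siCHD9/siHic5 and 14.2 in siBRM/siHic5. Depth behind the calls was not analysed, and the difference between the counts of 5 and 2 was not tested. In all, 7 of the 10 were called in none of the other 5 lists, beside 58.7% of the whole list. With Hic-5 present, 2 of the 2 siNS/siNS GBR were absent from siCHD9/siNS (51.4% of the list) and 1 of 2, the TSC22D4 GBR, was absent from siBRM/siNS (52.2%). An absent call may still be a weaker signal below the limit of its list, and the siNS/siNS calls had −log10 q-values of 12.2 and 12.3, above a lowest value of 8.88.

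The GBR called in other lists too were the stronger ones within the siHic5/siNS list. The 3 GBR called elsewhere had −log10 p-values of 46.2, 63.0 and 70.1 and widths of 783 to 822 bp, and their ranks were 949 to 1819. The 7 called nowhere else ranged from 12.5 to 21.7, with a median of 16.2 and ranks of 4940 to 9177. These 3 and 7 did not overlap. Over the whole list the corresponding groups had medians of 42.6 and 17.1 and overlapped widely, with ranges of 12 to 317 for GBR called elsewhere and 12 to 80.3 for those called nowhere else. All 10 together had a median of 18.7, beside 22.4 for the whole list, and a median width of 479 bp beside 506 bp.

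**Figure D3:**
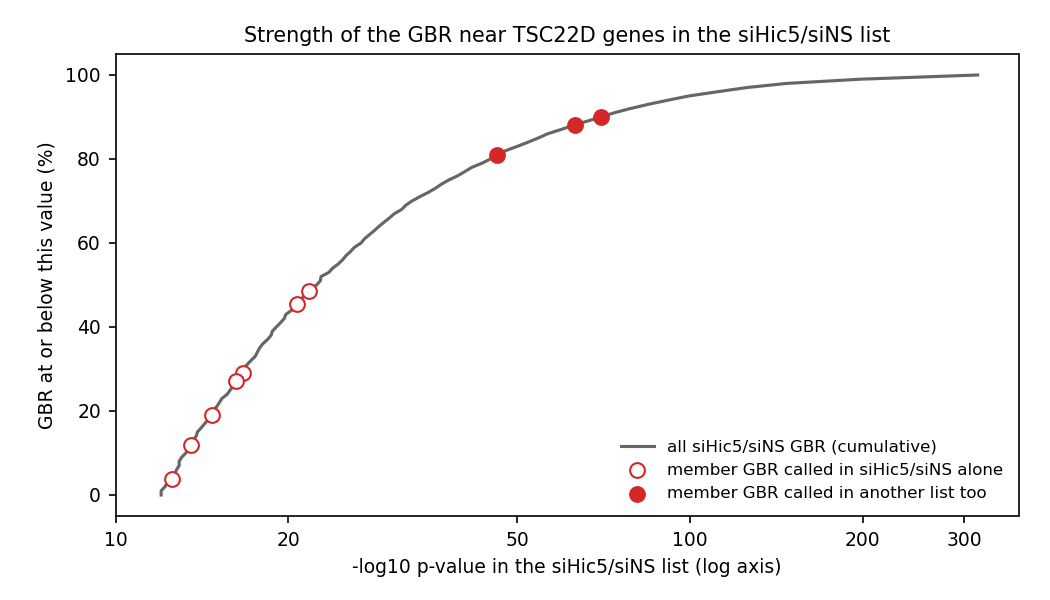
Strength of the 10 GBR near TSC22D genes (points) placed on the cumulative distribution of all 9533 siHic5/siNS GBR (line), with the −log10 p-value on a log axis and the percentage of GBR at or below it on the other axis. Open points were called in siHic5/siNS alone and lie between 12.5 and 21.7, and filled points were called in another list too and lie between 46.2 and 70.1.

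By motif, 8 of the 10 GBR held a GRE with at most 1 mismatch in the 200 bp at the summit, beside 60.0% of the whole siHic5/siNS list. A GRE without mismatch was found in 1 of 10, the TSC22D3 GBR at 75.4 kb, beside 17.6%. AP-1 elements were found in 2 of 10 (19.4% of the list), and an ETS element, searched as CCGGAAGT or CAGGAAGT, in 0 of 10 (4.76%). The ETS search allowed no mismatch, so looser ETS sequences were not counted. These counts cannot be set against the ETS shares of the study, which came from de novo motifs in wider windows. The 2 GBR without a GRE match were both of TSC22D3, at 33.8 kb and 65.0 kb, the pair that flanks the start of the short transcripts. In RefSeq promoter sequences of 300 bases, 8.15% of all promoters held a GRE match, and none of the 10 promoters matched to TSC22D1 (5), TSC22D3 (4) and TSC22D4 (1) did. No promoter was matched to TSC22D2, which was not examined. Within 10 kb of the canonical TSS, 0 of the 4 genes had a siHic5/siNS GBR, beside 8.08% of protein-coding genes, although the TSC22D3 GBR at 65.0 kb lay 5.58 kb from the short transcripts. With 4 genes, a count of 0 cannot be told apart from that share.

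The number of GBR around TSC22D3 depended on the list and on the window. Its 5 siHic5/siNS GBR were equalled or exceeded at 554 of 19975 protein-coding genes (2.77%), and its 2 siBRM/siHic5 GBR at 6.87%. Its 1 GBR was equalled or exceeded at 17.1% of genes in siNS/siNS, at 16.4% in siCHD9/siHic5 and at 9.95% in siBRM/siNS. Within 50 kb TSC22D3 had 1 siHic5/siNS GBR in place of 5. It had 2 when only GBR with their nearest canonical protein-coding TSS at TSC22D3 were counted. The 4 of TSC22D4 were equalled or exceeded at 5.85% of genes, in a window shared with 9 other TSS, and it had 2 within 50 kb and 0 by nearest TSS. Over the 6 lists, the genes with counts most like those of TSC22D3 included AREG, CARD14 and COL5A1 at a Euclidean distance of 1, a distance reached by 13 genes. For TSC22D4 the counts were matched exactly by 29 genes, of which ADO, ARSG and C9orf131 come first in the alphabet.

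**Figure D4:**
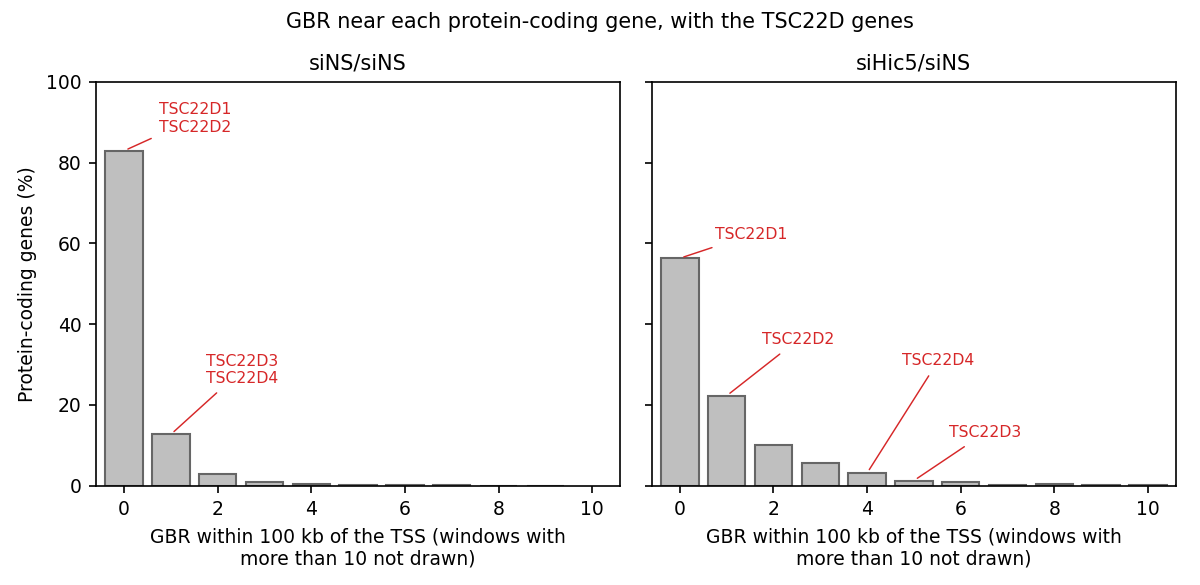
Percentage of 19975 protein-coding genes (bars, axis from 0) by the number of GBR within 100 kb of the canonical TSS in siNS/siNS (left) and siHic5/siNS (right), with the TSC22D genes marked. In siNS/siNS the 4 genes sit at 0 or 1, and in siHic5/siNS TSC22D4 sits at 4 and TSC22D3 at 5.

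Of 25 genes listed for their roles around the family, 17 had a GBR within 100 kb in siHic5/siNS and 9 in siNS/siNS, beside the 43.7% and 17.1% of all protein-coding genes. In siCHD9/siHic5 there were 8 (16.4% of all protein-coding genes), in siBRM/siHic5 11 (22.2%), in siCHD9/siNS 7 (10.5%) and in siBRM/siNS 4 (9.95%). Among partners of the TSC22 proteins and the WNK kinases, 3 of 6 had a GBR in siHic5/siNS and 2 in siNS/siNS. Among the proteins that GILZ binds or restrains, it was 8 of 11 and 3, and among TGF-β signalling genes and TSC22D1 partners 6 of 8 and 4. Within 10 kb of the canonical TSS, 6 of the 25 genes had a siHic5/siNS GBR, beside 8.08% of protein-coding genes.

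The 5 of these 6 with the strongest nearest GBR each had it called in siHic5/siNS alone. It was 2.89 kb from the TSS at rank 4934 for CEBPD, a transcription factor of inflammation and fat cell differentiation. For WNK4, a kinase that controls ion cotransporters, it was 2.95 kb away at rank 6339. For TGFB1, the ligand TGF-β1, it was 0.056 kb away at rank 6405, and for the receptor gene TGFBR2 it was 9.19 kb away at rank 6601. For FOS, a subunit of AP-1, it was 0.448 kb away at rank 6981. The sixth gene, JUN, encodes another AP-1 subunit. It was one of the 25 genes listed, but was named beyond the limit of 5 after its values were seen. Its nearest GBR was 2.23 kb away at rank 9266, and that GBR was called in siCHD9/siHic5 as well.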

How the data were processed

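GR ChIP-seq of U2OS-GRα cells was used, with 12 ChIP and 6 input libraries whose groups came from the labels. According to the methods and the submitters' processing notes, trimmed single-end reads were mapped to GRCh38/hg38 by BWA. Duplicates and mitochondrial reads were discarded, and the authors obtained peaks from MACS2 followed by the IDR framework, which keeps peaks found reproducibly between replicates. Tool versions are not given in the sources used here. The authors deposited 1 pooled list per combination with a signal value, a −log10 p-value, a −log10 q-value and a score (10 times the −log10 p-value). The deposited signal value is described as fold enrichment by the list format and as a depth-scaled count by the study, so it was used within a list only. Depth acts on these p-values and on which weak peaks are called, and read totals, which the lists do not hold, were not used. Columns of per-sample values that were not used numbered 0.

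Summits were assigned to canonical TSS of GENCODE release 44 within 100 kb, and peaks were matched by an overlap of at least 1 bp. All peaks fitted the reference, with 0 chromosome names absent and 0 peaks past a chromosome end. Positions count from 1. GBR were ranked by −log10 p-value within a list. Motifs were searched in 200 bp at the summit. Promoters were RefSeq sequences of the GRCh38 table supplied with the reference. With 1 pooled list per combination no test was made, and counts are given beside the percentage over the whole list.

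The members, gene lists and settings were chosen with earlier results of these data known. All GBR within 100 kb of the 4 genes were named, with the nearest canonical protein-coding TSS. Genes of like pattern, for members with at least 3 siHic5/siNS GBR, were the 3 sharing no GBR with the member and closest by Euclidean distance of their counts over the 6 lists. Of the 25 pathway genes, up to 5 with a siHic5/siNS GBR within 10 kb were named by rank. The GBR just outside the windows were described after their values were seen.

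Overlap counting and motif search were tested on simulated data, where 636 of 5000 random peaks overlapped, as by bedtools, and all 500 elements planted for each motif were recovered. Alternatives were other windows, TSS, thresholds, overlap rules, motif settings and ranking by signal. Python 3.11.15, NumPy 2.4.6, pysam 0.24.0, Matplotlib 3.10.9, samtools 1.23.1 and bedtools 2.31.1 were used. ATAC-seq and differential binding data were not analysed here.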

Additional observations from a re-analysis of the deposited data

How the results depend on the processing

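No paired analysis was possible because each list was made from pooled replicates and carries no replicate number, and leaving out a replicate was not possible for the same reason. Of 91 alternative values, 53 were within 1.5 times the value reported and 38 were not. Matching by the covered share of the shorter peak or by summits within 250 bp changed none of the counts of absent GBR.

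With a window of 50 kb, 4 GBR remained in siHic5/siNS, 1 in siBRM/siHic5 and 0 in siNS/siNS, siCHD9/siHic5 and siBRM/siNS. Of the 4, 4 were absent from siNS/siNS, 4 from siCHD9/siHic5 and 3 from siBRM/siHic5. Over the whole siHic5/siNS list these shares were 74.0%, 75.4% and 65.4%. With 0 family calls left in siNS/siNS and siCHD9/siHic5, the first 2 counts only restate that 0. Likewise 0 siNS/siNS GBR were left to be absent from siCHD9/siNS or siBRM/siNS. With 200 kb, or with the TSS of any annotated transcript, siHic5/siNS had 13 and 11, and in both settings siCHD9/siNS had 1 and siBRM/siNS 2. The same 1 and 2 were found when the TSC22D3 window was set from its short transcripts.

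At a common −log10 q-value of 14.2, 5 GBR remained in siHic5/siNS and 0 in siNS/siNS, siCHD9/siHic5 and siBRM/siNS. Of the 5, 5 were absent from siNS/siNS, 5 from siCHD9/siHic5 and 2 from siBRM/siHic5. At this threshold the whole-list shares were 76.1%, 78.2% and 50.5%. The first 2 counts were fixed by the 0 family calls left in those lists. Likewise 0 siNS/siNS GBR were left to compare with siCHD9/siNS or siBRM/siNS. Another setting counted only GBR whose nearest canonical protein-coding TSS was that of a family gene. Then 3 remained in siHic5/siNS, 1 in siBRM/siHic5 and 0 in siNS/siNS, siCHD9/siHic5 and siBRM/siNS. Of the 3, 3 were absent from siNS/siNS, 3 from siCHD9/siHic5 and 2 from siBRM/siHic5, beside 74.0%, 75.4% and 65.4% of the whole list. Here too the first 2 counts only restate the 0 family calls in those lists. No siNS/siNS GBR were left to compare with siCHD9/siNS or siBRM/siNS. This setting and the short transcript window were chosen after seeing the data.

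A GRE without mismatch was found in 1 GBR in place of 8. In 1-kb windows a GRE was found in 9 (71.4% of the list), AP-1 in 2 (37.1%) and ETS in 1 (11.6%). Ranked by signal value, the median rank of the 10 went from 5981.5 to 4716.0 and the TSC22D3 GBR at 98.5 kb from 949 to 627.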
